A study of Mus musculus with 12 samples.

Results

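The urea cycle and the handling of ammonia in mouse liver were followed through 10 genes of the 21705 in the expression table. Of these, 9 were listed for their role: Cps1, Otc, Ass1, Asl and Arg1 (the enzymes of the cycle), Nags, Slc25a15, Glul and Gls2. The mitochondrial carbonic anhydrase Car5a was chosen by its low level in the treated livers, so its difference between the groups is described and not tested. RNA-seq (single reads of 100 bases from polyadenylated RNA) was available for the livers of 12 female C57BL/6J mice aged 10 to 12 weeks. The mice had received, through the tail vein, either saline (n = 6) or LNA29 (n = 6). LNA29 is a mixture of locked nucleic acid oligonucleotides against miR-29a and against miR-29b/c, given at 20 mg/kg each, and livers were taken on day 7 after a fast of 18 h. The inhibitors were given systemically, so tissues other than liver were exposed as well, and the control livers here received saline and no control oligonucleotide. Titles give each library a number, as wt (43, 45, 47, 49, 51 and 53) or LNA (44, 46, 48, 50, 52 and 54). The wt libraries are called saline here, after their source labels, and the study counted 6 mice in each group.

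Ammonia released from amino acids is toxic, and the liver removes it by 2 routes. Periportal hepatocytes combine it with bicarbonate inside mitochondria and pass it through the urea cycle, and the ring of hepatocytes around the central vein binds what is left as glutamine. During a fast, when amino acids are used to make glucose, the load of ammonia on the cycle is large. In the mitochondrion, Car5a supplies the bicarbonate used by Cps1 and by pyruvate carboxylase, and its inherited loss in humans is known to cause high blood ammonia.

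Mature miR-29 was not analysed here, but its sequences show what LNA29 was directed against and which letters were searched for in the members. The 3 mature miR-29 sequences (RefSeq, GRCm38.p6) share the seed at bases 2 to 8, printed in capitals, and differ further 3′.
miR-29a-3p: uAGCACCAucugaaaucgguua
miR-29b-3p: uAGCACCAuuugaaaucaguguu
miR-29c-3p: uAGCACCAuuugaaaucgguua
In the longest 3′ UTR of each member (GENCODE M21, GRCm38, transcript strand only), the seed complement TGGTGCT was found in 1 of the 10, Cps1. It lies at chr1:67230611-67230617 on the plus strand, in exon 38 and within the 3′ UTR, beginning at base 265 of 913 after the stop codon, and is shown because it is the only match among the members.
Cps1 site: taacatttcaTGGTGCTggttta
The same letters occur in 2755 of 21011 genes with a 3′ UTR (13.1%). A match is a description of the sequence and not of binding, and Otc and Car5a hold none in these UTRs.

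Values below are the deposited normalised values, RSEM read estimates scaled per library, in which the upper quartile of genes with reads was 1000 in 11 libraries and 998 in saline 49. A single read was worth 9.80 to 24.4 units, and the libraries held 7696084 to 19062443 estimated reads (saline median 12011983, LNA29 median 9123461). Albumin took 35.7% of the reads in saline 49 and 43.6% to 46.9% in the other livers. The 6 hepatocyte markers were read in every liver, albumin among them, so the tissue label held. In whole liver, fewer cells of a type and less RNA per cell cannot be told apart. In limma's test of LNA29 against saline over 12486 genes, 20 genes had a Benjamini-Hochberg adjusted p below 0.05 (9 higher, 11 lower, 0.16% of those tested), and 988 (7.91%) had an unadjusted p below 0.05. Over all tested genes the median log2 fold change was -0.09.

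Of the 9 members listed for their role, 0 passed the adjusted threshold (limma). Only 1 of 9, Otc, had an unadjusted p below 0.05, beside 7.91% of all tested genes. The mean was higher in LNA29 livers for 5 of the 9 and lower for 4, with a median log2 fold change of 0.13. Over the 7 urea cycle members (the 9 without Glul and Gls2) the median was 0.21, with 5 higher and 2 lower. The 8 members other than Otc and Car5a had limma adjusted p-values between 0.720 and 0.958. Members thus ran in both directions, and among those listed for their role the smallest limma p was that of Otc, which was lower. By this p it stood 66th among the 12486 tested genes.

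**Figure D1:**
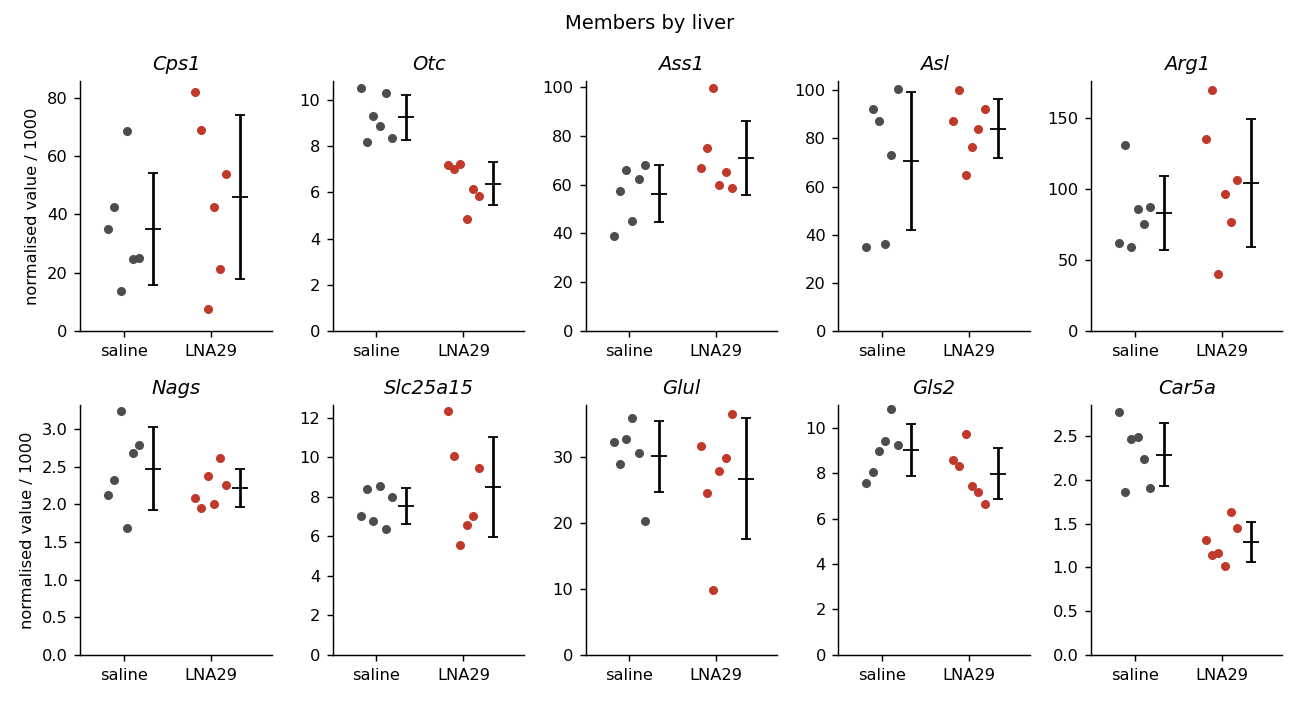
Normalised value (divided by 1000, each axis from 0) of the 10 members in each of 6 saline and 6 LNA29 livers, with points for livers and bars for the mean ± SD. The groups are apart for Otc and Car5a, and overlap for the other 8.

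Cps1, carbamoyl phosphate synthetase, joins ammonia and bicarbonate in the first, rate-setting step of the cycle. In saline livers its lowest, median and highest values were 13719, 30041 and 68650, and in LNA29 livers 7547, 48155 and 81938. The ranges of the groups overlapped widely, since the LNA29 group held both the lowest liver (LNA29 48) and the highest (LNA29 44) of the 12. The coefficient of variation was 54.9% in saline and 61.4% in LNA29 livers, the largest in each group among the members. The log2 fold change was 0.21 ± 0.48 (SE, n = 6 and 6), with a 95% interval from -0.81 to 1.22 and a limma adjusted p of 0.958. Neither an increase of 2-fold nor a decrease of 1.5-fold lies outside this interval, and no difference was detectable at this spread. The direction turned when LNA29 44 (-0.03) or saline 47 (-0.03) was left out, and without LNA29 48 the log2 fold change was 0.65 (limma adjusted p = 0.676).

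Otc, ornithine transcarbamylase, forms citrulline from carbamoyl phosphate and ornithine in the mitochondrial matrix, and lies on the X chromosome (chrX:10252230-10321024, plus strand, GRCm38). Its lowest, median and highest values were 8159, 9074 and 10531 in saline livers and 4857, 6588 and 7208 in LNA29 livers. Every LNA29 liver lay below every saline liver, which was so for 0.713% of the tested genes. The mean was 9246 ± 987 (SD, n = 6) in saline and 6384 ± 939 (SD, n = 6) in LNA29 livers, or 31.0% lower. The log2 fold change was -0.54 ± 0.13 (SE), with a 95% interval from -0.82 to -0.26. The exact two-sided permutation p was 0.00216, the smallest that 12 livers can give, while the limma p adjusted over all genes was 0.141. Otc was thus lower in all 6 LNA29 livers without passing the correction for 12486 genes. In 2 of 21 alternative fits the limma adjusted p was below 0.05. It was 0.0383 with array weights and 0.0344 with the length trend described below as covariate, a fit added after the data were seen. With TMM factors it was 0.325 and with a common median 0.299. Leaving out 1 liver gave limma adjusted p-values from 0.102 to 0.370 and log2 fold changes from -0.58 to -0.47.

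Nags makes N-acetylglutamate, the activator that Cps1 requires. Its lowest, median and highest values were 1680, 2502 and 3246 in saline and 1951, 2174 and 2623 in LNA29 livers. The LNA29 range lay inside the saline range. The log2 fold change was -0.13 ± 0.16 (limma adjusted p = 0.895). The antisense gene Gm11586 covers 445 bases of its transcript, so reads of the 2 may not be fully separated. Slc25a15, the carrier that brings ornithine into mitochondria, ran at 6374, 7504 and 8550 in saline and at 5566, 8219 and 12312 in LNA29 livers. Its LNA29 values spread to both sides of the saline range, and its log2 fold change was 0.13 ± 0.18 (limma adjusted p = 0.918).

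The 3 cytosolic enzymes each had a higher mean in LNA29 livers, within the spread between livers. Ass1, argininosuccinate synthetase, brings in the second nitrogen as aspartate, and had lowest, median and highest values of 39141, 59942 and 68088 in saline and 58493, 66045 and 99396 in LNA29 livers. Of the 6 LNA29 livers, 5 lay above the saline median. Its log2 fold change was 0.34 ± 0.19 (exact permutation p = 0.0974, limma adjusted p = 0.720). Its value is uncertain, because the processed pseudogene Gm5424 matches 1240 of its bases at 99.5% identity and is listed separately. Ass1 held 19.2% to 31.9% of the sum of both. For the sum, the log2 difference was 0.21 (exact permutation p = 0.110), with 183250 to 292637 in saline and 238821 to 322610 in LNA29 livers.

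Asl, argininosuccinate lyase, splits argininosuccinate into arginine and fumarate. Its values were 34734, 80025 and 100490 (lowest, median, highest) in saline and 64642, 85380 and 99902 in LNA29 livers. In saline, 2 livers stood low (43 and 49, at 34734 and 36360) and the other 4 were at 72909 or above, inside or near the LNA29 range. The log2 fold change was 0.36 ± 0.26 (limma adjusted p = 0.802). Arg1, arginase, releases urea and returns ornithine to the cycle, and had values of 59421, 80582 and 131317 in saline and 40340, 101679 and 169805 in LNA29 livers. Both the lowest and the highest of the 12 livers were LNA29 livers, and its log2 fold change was 0.24 ± 0.30 (limma adjusted p = 0.906).

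**Figure D2:**
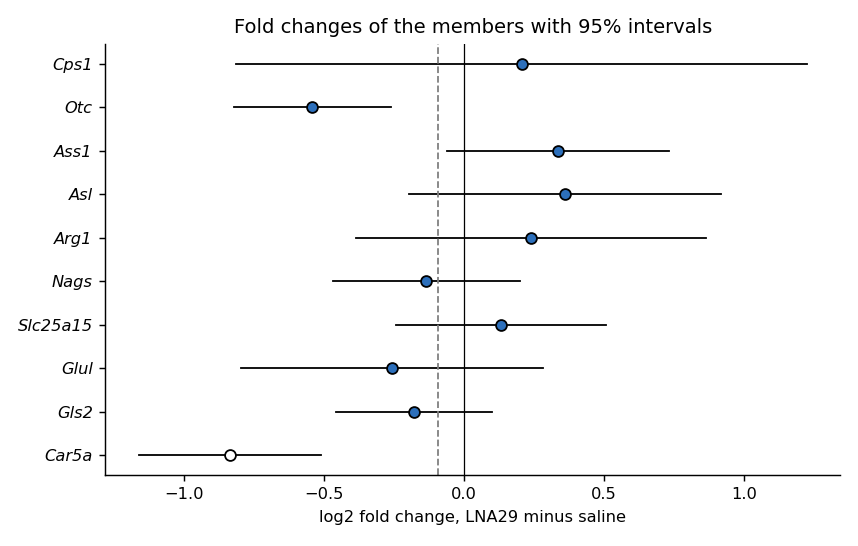
Log2 fold change (LNA29 minus saline, horizontal axis) of each member with its 95% interval from limma. The solid line marks no difference, the dashed line the median of all tested genes (-0.09), and the open point Car5a, which was chosen by this difference. Among the 9 filled points, the interval of Otc alone lies on one side of 0.

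The remaining pair of members handles glutamine. Gls2, the liver glutaminase, frees ammonia from glutamine in periportal mitochondria, and Glul, glutamine synthetase, fixes ammonia around the central vein. Gls2 had lowest, median and highest values of 7578, 9100 and 10798 in saline and 6630, 7852 and 9736 in LNA29 livers. Of the 6 LNA29 livers, 5 lay below the saline median. Its log2 fold change was -0.18 ± 0.13 (exact permutation p = 0.134, limma adjusted p = 0.803). Spryd4 overlaps Gls2 on the opposite strand, and since stranded counting is not given in the sources used here, their reads may not be fully separated. Gls2 was 88.6% to 96.8% of the sum of both genes.

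Glul, 1126 bases of which match the pseudogene Glns-ps1 at 96.8% identity, ran at 20284, 31536 and 36020 in saline and at 9906, 28899 and 36671 in LNA29 livers. The value of 9906 came from LNA29 48, and the other 5 LNA29 livers were at 24658 or above, inside the saline range or just over it. The log2 fold change was -0.26 ± 0.26 (limma adjusted p = 0.872), and without LNA29 48 it was 0.01. The log2 ratio of Gls2 to Glul was -1.73 ± 0.35 (SD, n = 6) in saline and -1.65 ± 0.85 (SD, n = 6) in LNA29 livers, a difference of 0.08 (exact permutation p = 0.898). In LNA29 48 the ratio was -0.02, and in no other LNA29 liver was it above -1.57. Without that liver the difference was -0.25 (exact permutation p = 0.262).

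Car5a (chr8:121916135-121944912, minus strand, GRCm38) had lowest, median and highest values of 1869, 2351 and 2774 in saline and 1018, 1238 and 1640 in LNA29 livers. All 6 LNA29 livers lay below all 6 saline livers, as the choice of the gene implies. The mean was 2292 ± 356 (SD, n = 6) in saline and 1288 ± 228 (SD, n = 6) in LNA29 livers, or 43.8% lower, and the log2 fold change was -0.84 ± 0.15 (SE). Leaving out 1 liver gave -0.91 to -0.77. Between livers of a group the coefficient of variation of Car5a was 15.5% in saline and 17.7% in LNA29 livers. Otc (10.7% and 14.7%) and Gls2 (12.5% and 14.1%) varied less in both groups.

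The reads behind Car5a were few, about 47 to 250 per liver, and part of its sequence is shared with other genes. The end of its transcript (bases 864 to 1249 of 1249, where the coding part ends at base 1011) matches 1279 other genes over at least 100 bases at 90% identity or more. Its values were whole multiples of 1 read in 1 of 12 livers, whereas those of the other 9 members were so in 12 of 12. The values thus include reads that RSEM divided among genes, and their part in the difference was not tested. BC048644, which overlaps Car5a on the opposite strand, had at most 10 reads in any liver, and Car5a was 94.9% to 99.9% of their sum.

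By the root mean square difference of centred log2 profiles over the 12 livers, the 5 genes most like Car5a among 8989 compared were Shisa5 (0.209), Cyb5b (0.213), Zfp710 (0.224), Xylb (0.226) and Ints1 (0.228). The median over the genes compared was 0.603. Otc, at 0.265, was the nearest member and stood 17th in this order, and Cps1, at 1.13, was the farthest. These profiles include the difference between the groups, by which Car5a was chosen. The order therefore favours genes lower in LNA29 livers and is only a description. Within the 6 saline livers, log2 levels of Otc and Car5a had a Pearson r of 0.752, and within the 6 LNA29 livers an r of 0.169. With 6 points each, these values are a description.

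Per kilobase of transcript, the members in saline livers ran in the order Arg1 (56580 ± 17682), Ass1 (33211 ± 6948), Asl (29276 ± 11865), Glul (10816 ± 1931), Cps1 (6296 ± 3455), Gls2 (3502 ± 438), Otc (3085 ± 329), Slc25a15 (2190 ± 265), Car5a (1835 ± 285) and Nags (1220 ± 271) (mean level ± SD, n = 6). Of the 9 neighbouring pairs in this order, 3 were apart by more than their SDs, Asl from Glul, Otc from Slc25a15 and Car5a from Nags. The place of Ass1 is that of the part of its reads not given to Gm5424. In LNA29 livers the first 6 places were the same. Otc (2130 ± 313) then came after Slc25a15 (2476 ± 743), and Car5a (1031 ± 183) after Nags (1093 ± 126), with overlapping SDs in both pairs.

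A property of the libraries, of untested origin, moved with several members. For each library, the rank correlation over 11090 genes between transcript length and the deviation from the mean of the 12 livers (the length trend) ran from -0.30 in saline 47 to 0.50 in saline 49, and from -0.25 to 0.26 in LNA29 livers. Over the 12 livers, log2 Cps1 rose with this trend, with r = 0.774 (permutation p = 0.00329, 0.0165 adjusted over 10 relations) and Spearman's rho = 0.811 (permutation p = 0.0022, adjusted 0.011). The relation was as large without the 2 farthest livers (r = 0.899) and within groups (r = 0.872 in saline and 0.926 in LNA29 livers). Cps1, at 5.555 kb, is the longest of the members. The relations did not keep the order of length, since Arg1 at 1.477 kb had r = 0.368 and Nags at 2.028 kb had r = -0.845.

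Nags ran the other way, with r = -0.845 (permutation p = 0.00046, adjusted 0.0046), rho = -0.846 (permutation p = 0.00094, adjusted 0.0094), and r = -0.783 without the 2 farthest livers. Its r was -0.972 within saline and -0.592 within LNA29 livers. Ass1 had r = -0.681 (permutation p = 0.015, adjusted 0.05) and rho = -0.587 (permutation p = 0.0497, adjusted 0.124), and without the 2 farthest livers (saline 43 and 49) r was -0.323, so that relation rests on them. Asl had r = -0.621 (permutation p = 0.0324, adjusted 0.0811), which became 0.304 without these livers. For Slc25a15 r was 0.552 (permutation p = 0.0629, adjusted 0.126) and rho was 0.657 (permutation p = 0.024, adjusted 0.080), with r = 0.836 without the 2 farthest livers, 0.457 within saline and 0.938 within LNA29 livers. For Arg1 r was 0.368 (permutation p = 0.236, adjusted 0.337) and rho was 0.469 (permutation p = 0.127, adjusted 0.211), with r = 0.799 without the 2 farthest livers, 0.066 within saline and 0.845 within LNA29 livers. For Glul, Gls2 and Otc the adjusted permutation p of r was between 0.163 and 0.779, and r without the 2 farthest livers was 0.430, -0.435 and -0.411. Otc had an r of 0.090 and Car5a an r of 0.176, the smallest of the 10 relations in size together with that of Gls2 (-0.189), though without the 2 farthest livers r was -0.502 for Car5a. With the trend as covariate, the log2 fold changes were -0.54 for Otc, -0.83 for Car5a and 0.27 for Cps1.

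**Figure D3:**
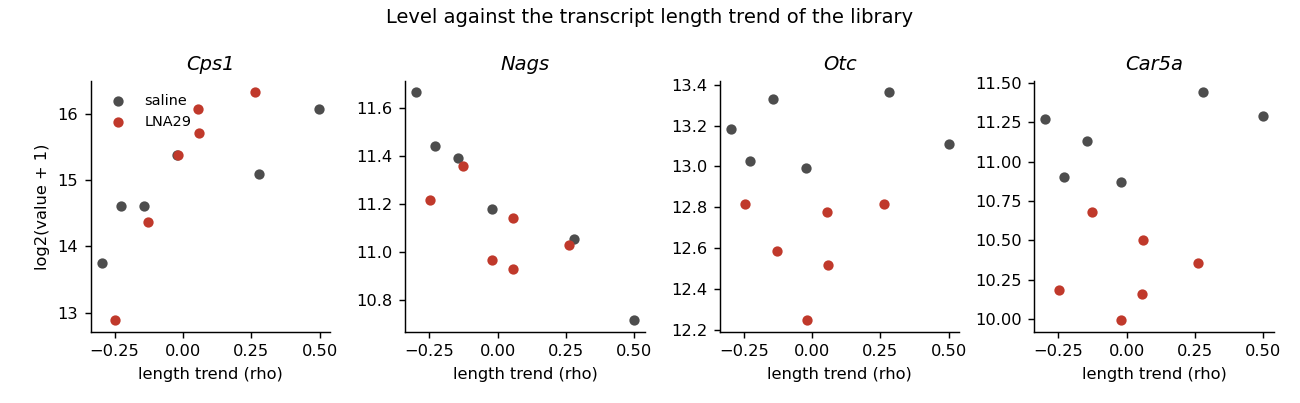
Log2 level (vertical axis) against the length trend of the library (rank correlation, horizontal axis) for Cps1, Nags, Otc and Car5a, 1 point per liver. Cps1 rises (r = 0.774) and Nags declines (r = -0.845) along the axis in both groups, while for Otc (r = 0.090) and Car5a (r = 0.176) all LNA29 points lie below all saline points.

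Some members also varied together from liver to liver, and others ran opposite ways. Over 45 pairs, Cps1, Arg1 and Slc25a15 were joined by high correlations. For Cps1 and Arg1 r was 0.850 (permutation p = 0.00039, adjusted 0.0106) and rho was 0.846 (permutation p = 0.00097, adjusted 0.018), with r = 0.671 without the 2 farthest livers. For Cps1 and Slc25a15 r was 0.831 (permutation p = 0.00081, adjusted 0.0106) and rho was 0.846 (permutation p = 0.0012, adjusted 0.018), with r = 0.794 without the 2 farthest livers. For Arg1 and Slc25a15 r was 0.828 (permutation p = 0.00094, adjusted 0.0106) and rho was 0.797 (permutation p = 0.00303, adjusted 0.0273), with r = 0.743 without the 2 farthest livers. Within groups these 3 pairs had r from 0.530 to 0.720 in saline and from 0.853 to 0.966 in LNA29 livers. Cps1 and Nags ran opposite, with r = -0.702 (permutation p = 0.011, adjusted 0.0822) and rho = -0.811 (permutation p = 0.00208, adjusted 0.0234). Their r was -0.823 without the 2 farthest livers, -0.962 within saline and -0.674 within LNA29 livers. For Ass1 and Glul r was -0.746 (permutation p = 0.00518, adjusted 0.0466) and rho was -0.643 (permutation p = 0.0286, adjusted 0.214). The length trend moved with Cps1 over all livers and with Arg1 and Slc25a15 without the 2 farthest livers and within LNA29 livers, as given above, and its part in these relations was not tested.

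LNA29 48 was at the end of the range for more members than any other liver. It had the lowest value of all 12 livers for 4 members (Cps1, Arg1, Slc25a15 and Glul) and the highest for Ass1. Of these, Cps1, Arg1 and Slc25a15 varied together, as given above. Saline 43 was lowest for 2 members (Asl and Ass1) and highest for 2 (Car5a and Otc). Without LNA29 48 the log2 fold changes were 0.49 for Arg1, 0.24 for Slc25a15 and 0.23 for Ass1, and 0 of the 9 members passed the adjusted threshold of limma. Other livers moved Arg1 the other way but less far, to 0.07 without LNA29 46, and Slc25a15 about as far, to 0.01 without LNA29 44.

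The other genes of the pathway were taken from 6 lists by role, which hold 79 genes, of which 65 could be tested. None passed the adjusted threshold of limma. At an unadjusted p below 0.05, 2 were higher and 14 lower in LNA29 livers, 24.6% of those tested beside 7.91% of all genes, and for 4 the groups did not overlap (beside 0.985% of all tested genes). The lists were drawn up with earlier results of these data known, so these shares are a description and not a test. The median log2 fold change of the 65 was -0.21, beside -0.09 over all genes.

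Of 15 carbonic anhydrases, the family of Car5a, 9 had no more than 3 reads in any liver. Among 9 tested genes, 4 were lower and 1 higher at an unadjusted p below 0.05, and the higher one was among those with no more than 3 reads. Car3, a cytosolic form abundant in liver and the most abundant of the list here, ran at 3676, 9064 and 33844 (lowest, median, highest) in saline and at 1054, 2098 and 9283 in LNA29 livers. Its log2 fold change was -1.95 ± 0.48 (limma adjusted p = 0.141), and the ranges overlapped. Without LNA29 48 the log2 fold change was -2.34 (limma adjusted p = 0.0218). It was -1.58 without saline 43 (limma adjusted p = 0.304) and -1.71 without LNA29 50 (limma adjusted p = 0.366). Car14, a membrane form, ran at 845, 1260 and 1321 in saline and at 601, 706 and 865 in LNA29 livers. Only the lowest saline liver reached into the LNA29 range, and the log2 fold change was -0.72 ± 0.17 (limma adjusted p = 0.119).

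The 5 mitochondrial carboxylases that use bicarbonate, the other users of the product of Car5a, had log2 fold changes from -0.31 to -0.07, and 0 had an unadjusted p below 0.05. Pcx, pyruvate carboxylase, was the most abundant. It ran at 22781, 25946 and 27700 in saline and at 12679, 22689 and 28050 in LNA29 livers, a log2 fold change of -0.31 ± 0.18 (limma adjusted p = 0.734). Its ranges overlapped.

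Of 19 genes that supply aspartate, ornithine or arginine, 16 were tested, and 5 were lower at an unadjusted p below 0.05. Slc25a10, the mitochondrial dicarboxylate carrier, ran at 14016, 15749 and 20495 in saline and at 10808, 11471 and 14000 in LNA29 livers. Glud1, glutamate dehydrogenase, which releases ammonia in the mitochondrion, ran at 14471, 15773 and 22094 in saline and at 11358, 12628 and 14450 in LNA29 livers. For both genes all LNA29 livers lay below all saline livers, by a narrow margin. The log2 fold change was -0.51 ± 0.13 for Slc25a10 (limma adjusted p = 0.194) and -0.41 ± 0.13 for Glud1 (limma adjusted p = 0.342). A lack of overlap, one of the rules for naming genes of the lists, fixes the exact permutation p at 0.00216. It is therefore not given as a test for genes named in this way. Oat, ornithine aminotransferase, the most abundant of the list, ran at 12877, 24410 and 31750 in saline and at 3868, 20452 and 40756 in LNA29 livers. Its log2 fold change of -0.34 ± 0.43 (limma adjusted p = 0.907) turned to 0.09 without LNA29 48.

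Of 17 genes for transport of glutamine and ammonia and for glutaminase, 13 were tested, and 3 were lower at an unadjusted p below 0.05. Slc38a3, the system N carrier that moves glutamine across the hepatocyte membrane, ran at 40349, 47524 and 59938 in saline and at 27589, 33260 and 36019 in LNA29 livers. Again every LNA29 liver lay below every saline liver. The mean was 48252 ± 7805 in saline and 32774 ± 2854 in LNA29 livers (SD, n = 6 each), or 32.1% lower, with a log2 fold change of -0.55 ± 0.15 (limma adjusted p = 0.210). Aqp8, a channel for water that also passes ammonia, ran at 530, 1284 and 1636 in saline and at 195, 357 and 830 in LNA29 livers, a log2 fold change of -1.51 ± 0.33 (limma adjusted p = 0.0981). Its groups overlapped, and it rested on as few as 8 reads in a liver. It passed the adjusted threshold of limma without LNA29 48 (adjusted p = 0.0218) or without saline 49 (adjusted p = 0.0396). Without any other single liver its limma adjusted p was from 0.0932 (saline 53) to 0.293 (saline 51).

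Among 12 enzymes that release ammonia from amino acids, 11 were tested and 1 was higher at an unadjusted p below 0.05. This was Sdsl, a serine dehydratase-like enzyme, at 562, 1812 and 1968 (lowest, median, highest) in saline and 2375, 3353 and 4786 in LNA29 livers. Here each LNA29 liver was above each saline one, at a log2 fold change of 1.20 ± 0.27 (limma adjusted p = 0.119). Its relative Sds, the most abundant of the list, ran at 11349, 16908 and 22384 in saline and at 12951, 19096 and 23679 in LNA29 livers (log2 fold change 0.10 ± 0.18, limma adjusted p = 0.939). Thus of these related enzymes only the less abundant one was apart between the groups, though the difference between them was not tested.

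Of 11 regulators of the cycle, 2 were lower at an unadjusted p below 0.05. Gcgr, the glucagon receptor, through which fasting raises the enzymes of the cycle, ran at 9079, 12132 and 13848 in saline and at 8125, 8682 and 10151 in LNA29 livers. Its groups overlapped at 1 end, and its log2 fold change was -0.40 ± 0.13 (exact permutation p = 0.00433, limma adjusted p = 0.315). Hnf4a, a hepatocyte transcription factor, ran at 18921, 26742 and 32889 in saline and at 22220, 24532 and 30112 in LNA29 livers (log2 fold change -0.05 ± 0.15, limma adjusted p = 0.967).

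**Figure D4:**
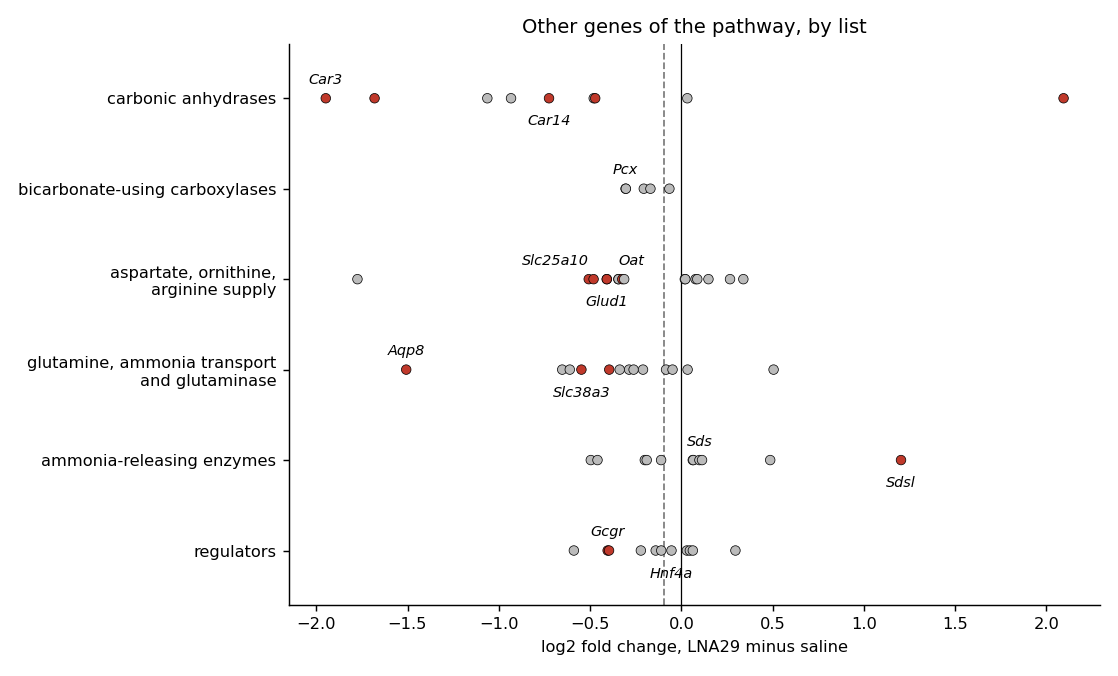
Log2 fold change (LNA29 minus saline, horizontal axis) of the 65 tested genes in 6 lists, 1 point per gene. Red points have an unadjusted limma p below 0.05 (2 higher, 14 lower), 0 pass the adjusted threshold, named genes are labelled, and the dashed line is the median of all tested genes. The point farthest to the right had no more than 3 reads in any liver.

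Markers of the liver zones and of other cell types were set beside these values. The summed level of 9 periportal markers ran from 462641 to 556302 in saline and from 482849 to 698024 in LNA29 livers, and that of 12 pericentral markers from 592510 to 1154290 and from 341341 to 844796. The exact permutation p was 0.361 for the periportal and 0.0758 for the pericentral sum. Single genes carried these sums, Pck1 the periportal one (389503 ± 46898 in saline, SD, n = 6) and Cyp2e1 the pericentral one (728480 ± 195104). The median log2 fold change was 0.06 over the periportal and -0.27 over the pericentral markers. The log2 fold change was below 0 for 9 of 12 pericentral markers, beside 61.4% of all tested genes. At an unadjusted limma p below 0.05, 1 periportal marker was higher and 1 lower, and 1 pericentral marker was lower. Endothelial markers (6 of 6 tested, 5 with a log2 fold change below 0) summed to between 5381 and 5965 in saline and between 4536 and 5603 in LNA29 livers, with 1 lower at an unadjusted p below 0.05. Their sum had an exact permutation p of 0.00866, the smallest among the marker lists and not adjusted for their number. The sums of erythroid, macrophage, stellate, bile duct and neutrophil markers overlapped between the groups (exact permutation p from 0.379 to 0.974), with 1 macrophage marker higher at an unadjusted p below 0.05. No marker of any list passed the adjusted threshold. The part of zone or cell make-up in the lower Otc and Car5a levels was not tested.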

How the data were processed

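RNA from 12 livers (6 saline, 6 LNA29) had been sequenced and quantified by the authors with RSEM against mm9, per the labels. The deposited values are a signal scaled per library (upper quartile of genes with reads 998 to 1000), with a gene without reads set to 1. Of the values, 92.2% to 93.8% per library lay within 0.02 of a whole number of reads. The table also held 3 columns without a sample name, which were not used. Log2(value + 1) was tested with limma 3.58.1 (trend, two-sided, Benjamini-Hochberg, no covariate) over genes with a mean of at least 10. Fold changes are on this scale. Exact permutation tests used all 924 divisions of the livers, and correlations 100000 permutations. All p-values measure the spread between single livers. Gene models, sequence copies (blastn 2.17.0) and UTRs came from GENCODE M21 (GRCm38), matched by symbol. The test was checked on simulated data. The members and lists were chosen with earlier results of these data known. The text names all members, the most abundant gene of each list, the one with the smallest p, those whose groups did not overlap, and the 5 most like Car5a with a mean of at least 100. Alternatives were other pseudocounts, filters and scalings, array weights and leaving out livers. Added after the data were seen were the length trend, leaving out saline 49 with LNA29 48, and the sum of Ass1 and Gm5424.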

Additional observations from a re-analysis of the deposited data

Results flagged for a closer look

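Glul in LNA29 48, at 9906, stood far below the other 5 LNA29 livers, the next being at 24658 and the highest at 36671. Car14 in saline 53, at 845, stood below the other 5 saline livers, the next being at 1226 and the highest at 1321. These were 2 of 44 groups of 6 livers examined in this way, and chance flags about 1 in 20, or 2.2 of them.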

How the results depend on the processing

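Beside the 20 genes called over all genes by limma, 58 were called with array weights, 10 with a common median, 126 with the length trend as covariate and 44 without saline 49 and LNA29 48. Leaving out 1 liver gave 1 to 29: 1 without saline 43, LNA29 50 or LNA29 54, 3 without saline 51, 7 without saline 53, 9 without LNA29 46, 10 without LNA29 52 and 11 without saline 47. Of the 9 members listed for their role, 1 (Otc) was called with array weights and 1 (Otc) with the length trend, and 0 in every fit without 1 liver. Of the pathway neighbours, 3 were called with array weights (Aqp8, Car3, Slc38a3), 5 with the length trend (Aqp8, Car14, Sdsl, Slc25a10, Slc38a3) and 2 without saline 49 and LNA29 48 (Aqp8, Car3), and 0 to 2 when 1 liver was left out (2 without LNA29 48, 1 without saline 49). The causes were not tested. With the pseudocounts of 0.1 and 10, TMM factors and other filters, these counts stayed within 1.5 times. The median over the 7 urea cycle members kept its sign (0.01 to 0.30 without 1 liver). Otc kept its direction in 21 of 21 alternatives, Glul and Cps1 in 19, while the direction of Car5a was fixed by its choice. TMM factors moved the median of all genes from -0.09 to -0.02. Tests on read counts were not run here (92.2% to 93.8% of the values per library were whole reads). No paired analysis was possible because the livers' numbers are not shared between the groups. The fewest reads in a liver were 8 for Aqp8, 32 for Car14, 36 for Sdsl and 47 for Car5a.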
